A study of Mus musculus with 12 samples.

Results

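The 6 arrays described here come from 3 double knockout mice, each of which gave 1 basal forebrain and 1 cortex sample, out of 12 arrays from 6 mice in all. They are the 3 arrays labelled cDKO-Basal Forebrain and the 3 labelled cDKO-CORTEX, joined by the animal named in their titles. Both samples of an animal have the same replicate number in their descriptions. The double knockout (DKO) mice carry ChatCre, a pair of floxed alleles of another gene and PS2-/-, were 2 months old and are labelled male. Cre driven from the Chat locus, which encodes the enzyme that makes acetylcholine, deletes the floxed gene in cholinergic cells, whereas PS2-/- applies to every cell. The 3 control (Con) mice, also 2 months old and labelled male, have no Cre, carry the same floxed alleles and are PS2+/-, so they lack 1 Psen2 allele. Con mice enter here to ask whether a regional difference in DKO mice is larger or smaller than theirs. They are also part of the fit, whose residual spread is shared by both genotypes. RNA was taken from dissected tissue, so each value is a mixture of all cells in the piece.

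The basal forebrain lies below the cortex and holds the cholinergic neurons that project to the cortex and hippocampus. It borders the striatum, whose main cells are spiny GABA neurons, and the preoptic area and hypothalamus, whose cells make peptide hormones. Most cortical neurons are glutamatergic cells of dorsal origin, and the 2 territories are set apart in development by different transcription factors. The Psen2 protein can form the active site of gamma-secretase, an enzyme complex with APP and Notch among its substrates.

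Levels are log2 signals minus each array's 75th percentile, so 0 is the 75th percentile of that array and levels of different genes are not compared. A difference is the basal forebrain level minus the cortex level, so a positive value is higher in the basal forebrain and a difference of 1 is 2-fold. A gene is called where limma's test, with mouse as a block, gave an adjusted p under 0.05. Each SE and p rests on limma's moderated spread over all 12 arrays, Con pairs included. An SE is therefore not the spread of the DKO differences alone. The share of probes marked well above background ran from 68.9% to 75% over the 12 arrays, replicates of a group correlated at 0.985 to 0.995, and the number of mice limits the precision. All basal forebrain arrays and the DKO cortex arrays of mice 1 and 2 lay on slide 1, while the cortex arrays of DKO mouse 3 and of all Con mice lay on slide 2. Counts from the 2 DKO pairs within slide 1, or without 1 mouse, are given for a gene list where they differ from its count by over 1.5 times.

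Psen2, deleted in every cell of the DKO mice, checks the labels. It was at -1.86, -1.44 and -1.25 in DKO basal forebrain and at -1.7, -1.59 and -1.67 in DKO cortex, against 0.25 to 0.5 over the 6 Con arrays. Psen2 was low in both regions of every DKO mouse, and its regional difference was 0.14 ± 0.12 (SE, n = 3 mice, limma adjusted p = 0.394). It was still well above background on all 6 DKO arrays, and the sources used here do not say whether its probe lies in the deleted part.

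The RNA of 2 of the 3 DKO mice went against the label male. Xist, the RNA of the inactive X chromosome, was at -1.89 and -1.53 in the basal forebrain and at -1.8 and -2.32 in the cortex of the animals labelled DKO mice 1 and 3. It was not well above background in DKO mouse 2 or in any Con mouse. The Y-linked gene Ddx3y was at -1.55 and -1.36 in DKO mouse 2 and at -8.47 or lower, not well above background, in DKO mice 1 and 3. The 2 arrays of each mouse gave the same pattern for Xist and Ddx3y, and every regional difference below is taken within a mouse. Kdm5d, also Y-linked, went against that pattern, with its probe well above background on every DKO array. The contrast with Con mice compares different mice, so apparent sex and genotype are partly mixed in it. Leaving out mice 1 and 3 leaves 1 DKO pair, whose spread is then assumed to be that of the Con pairs, and 5178 genes were called in that fit.

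Of 25916 genes tested in DKO mice, 10397 (40.1%) were called. The basal forebrain was higher for 5156 (19.9%) and the cortex for 5241 (20.2%). These shares are the ones to set beside each list count below. At 2-fold or more, 3767 genes (14.5%) were called, 2565 (9.9%) higher in the basal forebrain and 1202 (4.64%) higher in the cortex. With normexp background correction the 2-fold count was 1843, with 1073 higher in the basal forebrain and 770 in the cortex. Without mouse 2, 6625 genes were called at any size, and within slide 1, 7668. When the spread came from the 6 DKO arrays alone, 8120 were called. Of the 3767 genes, 3759 differed in the same direction in all 3 mice, and in 3684 the 3 basal forebrain levels did not overlap the 3 cortex levels, against 12994 (50.1%) of all genes tested without overlap. The 3767 were picked by their differences on these same arrays, so both counts follow largely from that choice and are no separate support. The median difference over all genes tested was -0.04, with quartiles of -0.3 and 0.31. Under scaling to each array's median instead of its 75th percentile the median difference was -0.32, and 23.8% of calls, rather than 49.6%, were higher in the basal forebrain. At 2-fold that share was 47.5% under median scaling and 68.1% as scaled here. The direction of small differences depends on this scaling, so for most gene lists the counts under median scaling are given too where they differ by over 1.5 times.

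The excess of 2-fold calls in the basal forebrain lay among dim and unnamed probes. Genes were split by mean level into 4 groups of equal size, and in the dimmest group 1286 were higher in the basal forebrain and 402 in the cortex. In the brightest group the counts were 103 and 200. Genes with a RefSeq symbol gave 925 and 845, and those without one 1640 and 357.

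Cholinergic neuron genes gave the highest list median of those examined. All 11 of 11 genes tested were called higher in the basal forebrain, where 19.9% of all genes were, with a median difference of 3.82 against -0.04 over all genes. Lhx8, a homeodomain factor that specifies forebrain cholinergic neurons, was at 2.5, 2.46 and 2.8 in the basal forebrain and at -4.03, -2.72 and -2.21 in the cortex of mice 1 to 3. Its difference was 5.57 ± 0.25 (SE, n = 3 mice, limma adjusted p = 3.78e-06), from a probe at mm9 chr3:153969377-153969436, while its other probe gave 1.49. Ngfr, the low-affinity neurotrophin receptor, was at 1.6, 1.51 and 1.91 against -2.82, -2.69 and -2.15. Its difference of 4.23 ± 0.1 (limma adjusted p = 3.22e-07) came from a probe at mm9 chr11:95430211-95430270. The groups did not overlap for any of the 11 genes.

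The genes of acetylcholine handling moved with the identity genes. Slc18a3, which loads acetylcholine into vesicles, was at 1.33, 1.18 and 1.46 in the basal forebrain and at -3.06, -2.47 and -1.96 in the cortex (difference 3.82 ± 0.17, limma adjusted p = 3.54e-06). Slc5a7, the choline transporter, was at 1.43, 1.5 and 1.75 against -2.93, -2.16 and -1.8 (3.85 ± 0.15, limma adjusted p = 2.75e-06). Chat itself, whose locus carries the Cre, was at -0.08, 0.26 and -0.04 against -2.33, -2.35 and -1.66 (2.16 ± 0.19, limma adjusted p = 9.61e-05), and its 3 probes ranged from 0.23 to 2.16. Ache, which breaks acetylcholine down, differed by 1.58. Isl1, a LIM-homeodomain factor, differed by 3.94 ± 0.18 and Ecel1, a membrane peptidase, by 3.54 ± 0.12. In bulk tissue, fewer cells of a type and less RNA per cell cannot be told apart. By mouse the list median was 4.36, 3.65 and 3.43 in DKO mice, and 3.01, 3.05 and 3.01 in Con mice. The summed log2 signal of the list was 1.92 to 2.29 in DKO cortex and 2.51 to 2.65 in Con cortex. In the basal forebrain it was 5.41 to 5.71 and 5.39 to 5.47. All Con cortex arrays lay on slide 2, with that of DKO mouse 3 alone among DKO mice. Slide and genotype are therefore partly mixed in this comparison.

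**Figure D1:**
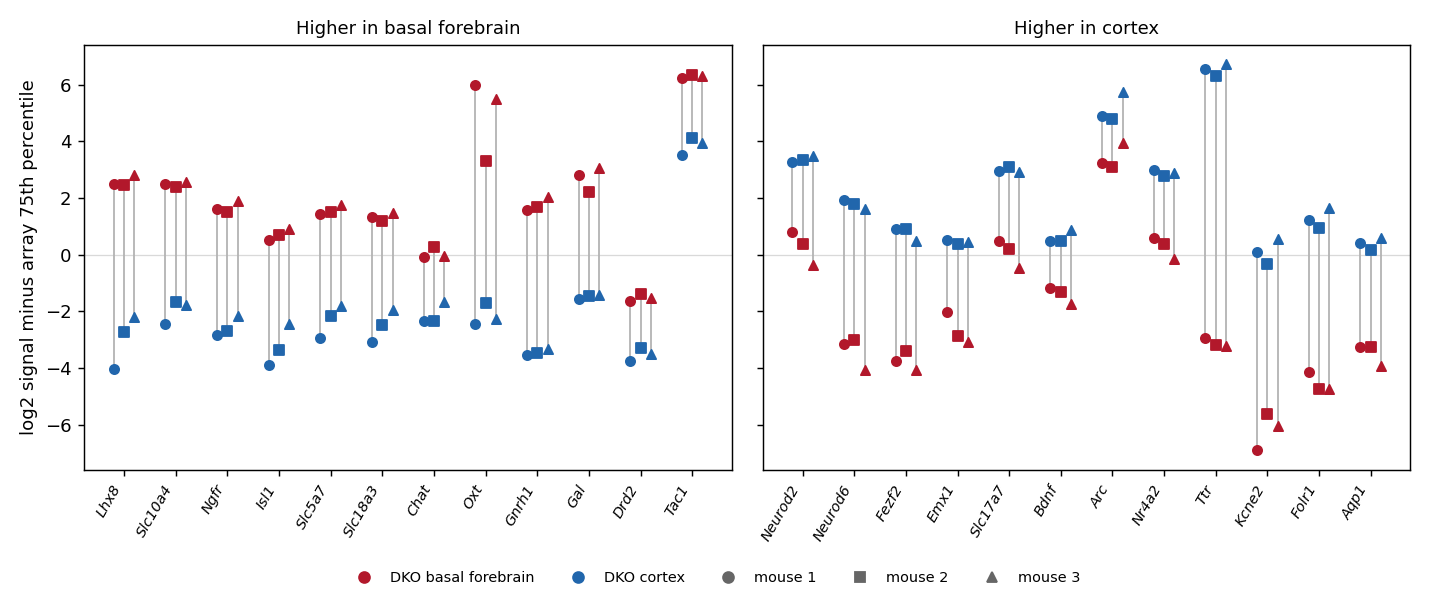
Levels (log2 signal minus the array's 75th percentile) of 24 genes in the 6 DKO arrays, with basal forebrain in red, cortex in blue, the symbol giving the mouse and a line joining the 2 regions of a mouse. Each gene's red and blue points lie apart in every mouse, and Oxt in the basal forebrain runs from 3.32 in mouse 2 to 5.99 in mouse 1.

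Upstream sequences are shown for 5 genes of the groups that moved together, as the 250 bases before the RefSeq start site (GRCm38.p6), written 5′ to 3′ on the gene's strand. Slc18a3 and Ngfr stand for the cholinergic genes, with CAAGTG, a core bound by NKX2 factors, in capitals on either strand (as CACTTG in Ngfr). Neurod2, with the E-box CAGATG in capitals, is the 1 of 12 cortical excitatory genes with a window that holds it, so it is not typical of them. Its window also holds a TGACGT, left in small letters. Fos and Dusp1 stand for the immediate early genes, with TGACGT, the core of the cAMP response element, in capitals on either strand; in Dusp1 2 of its 3 matches overlap.
Slc18a3 (chr14:32464851-32465100, minus strand): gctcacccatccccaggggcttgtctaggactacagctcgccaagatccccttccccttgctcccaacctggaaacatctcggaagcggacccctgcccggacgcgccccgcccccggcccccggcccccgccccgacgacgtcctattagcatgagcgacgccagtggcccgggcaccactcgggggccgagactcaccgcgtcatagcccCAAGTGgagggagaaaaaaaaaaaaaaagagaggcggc
Ngfr (chr11:95587699-95587948, minus strand): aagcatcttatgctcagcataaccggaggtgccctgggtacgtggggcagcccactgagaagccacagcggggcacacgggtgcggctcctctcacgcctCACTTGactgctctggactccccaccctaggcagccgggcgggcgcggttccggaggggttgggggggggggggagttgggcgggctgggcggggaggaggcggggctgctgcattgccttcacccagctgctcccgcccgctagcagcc
Neurod2 (chr11:98329646-98329895, minus strand): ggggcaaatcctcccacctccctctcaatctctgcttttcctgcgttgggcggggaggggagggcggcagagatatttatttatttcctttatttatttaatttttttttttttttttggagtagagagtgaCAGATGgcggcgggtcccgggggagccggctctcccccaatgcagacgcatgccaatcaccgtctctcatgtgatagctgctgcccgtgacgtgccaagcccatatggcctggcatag
Fos (chr12:85473640-85473889, plus strand): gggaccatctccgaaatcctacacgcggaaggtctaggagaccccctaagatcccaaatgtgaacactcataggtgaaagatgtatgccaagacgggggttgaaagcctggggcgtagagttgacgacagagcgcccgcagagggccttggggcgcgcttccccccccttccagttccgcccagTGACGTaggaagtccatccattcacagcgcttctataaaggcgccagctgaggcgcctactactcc
Dusp1 (chr17:26508473-26508722, minus strand): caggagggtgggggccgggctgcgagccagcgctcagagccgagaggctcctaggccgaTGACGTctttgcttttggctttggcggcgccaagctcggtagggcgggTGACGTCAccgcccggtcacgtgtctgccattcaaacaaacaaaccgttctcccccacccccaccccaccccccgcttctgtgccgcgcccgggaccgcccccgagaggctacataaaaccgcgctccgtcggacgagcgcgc

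These windows were searched on both strands in the 14634 tested genes that have a promoter in the RefSeq table, after some windows had been read, so the shares are descriptions. CAAGTG was in 9.98% of all windows, in 12.8% of the 846 windows of genes 2-fold higher in the basal forebrain, and in 11.5% of the 713 of genes 2-fold higher in the cortex. Among 9 cholinergic genes with a window it was in 4, Slc18a3, Ngfr, Ecel1 and Zic4. CAGATG was in 11.6% of all windows, 16.3% of the basal forebrain set, 14.4% of the cortex set and 1 of 12 cortical excitatory genes, Neurod2. TGACGT was in 8.82% of all windows, 4.61% of the basal forebrain set, 5.61% of the cortex set and 6 of 14 immediate early genes. The median GC content of the windows was 58% over all tested genes, 54.4% for the basal forebrain set and 55.6% for the cortex set. A match is a run of letters and not a measured site.

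Hypothalamic and preoptic genes were the second group higher in the basal forebrain samples. Of 24 tested, 18 were called higher there and 1, Pgr, the progesterone receptor, in the cortex, with a median difference of 2.32. Gnrh1, the gonadotropin-releasing hormone of scattered preoptic neurons, was at 1.59, 1.69 and 2.03 against -3.55, -3.47 and -3.32 (difference 5.22 ± 0.1, limma adjusted p = 1.31e-07). Oxt, the oxytocin precursor, was at 5.99, 3.32 and 5.48 against -2.44, -1.69 and -2.25 (7.06 ± 1.01, limma adjusted p = 0.00106), from a probe at mm9 chr2:130402665-130402724. Oxt was lowest in the basal forebrain of mouse 2, and in that mouse alone its adjusted p was 0.0935. Gal, the galanin precursor, was at 2.82, 2.21 and 3.05 against -1.57, -1.45 and -1.41 (4.17 ± 0.35, limma adjusted p = 7.16e-05). Nts, the neurotensin precursor, was at 3.06, 3.3 and 3.38 against -0.76, -0.68 and -0.69 (3.95 ± 0.09, limma adjusted p = 3.22e-07). Hmx3 and Hmx2, neighbouring homeobox genes on chromosome 7, were not well above background in any DKO cortex sample. They were at least 37.7-fold and 12.5-fold higher in the basal forebrain (limma adjusted p = 4.52e-06 and 1.49e-05). Here and for each bound below, the p is that of the signals as scanned, background-level ones included, and does not test the bound.

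Members of this list did not move alike in the 3 mice. The list median was 2.23, 1.02 and 2.53 in DKO mice 1 to 3 and 2.77, 0.85 and 1.85 in Con mice 1 to 3, so mouse 2 of each genotype was the lowest. Avp, the vasopressin precursor, was at 3.77, -1.14 and 0.46 against -2.24, -1.12 and -0.94 and was not called (2.47). The peptide genes Hcrt (-0.49), Agrp (0.38) and Tac2 (0.27) of the hypothalamus were not called either. In DKO mouse 2 alone, 11 of the 24 were called higher in the basal forebrain. The cortex was called higher for 3 under median scaling, and for 2 within slide 1, without DKO mouse 3 or without Con mouse 2.

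Striatal medium spiny neuron genes were called higher in the basal forebrain in 19 of 20 cases, with a median difference of 1.42. Tac1, the precursor of substance P, was at 6.23, 6.35 and 6.29 against 3.53, 4.13 and 3.93 (2.42 ± 0.12, limma adjusted p = 6.32e-06), although its probes ranged from -1.14 to 2.51. Rgs9, which ends G-protein signals in the striatum, was at 5.29, 5.6 and 5.57 against 2.84, 3.45 and 3.48 (2.23 ± 0.13, limma adjusted p = 1.12e-05). Pde10a, a striatal phosphodiesterase, differed by 1.81 ± 0.1, and the guanine nucleotide exchange factor Rasgrp2 by 1.43 ± 0.08. Drd1 and Drd2, the dopamine receptors of the direct and indirect pathway cells, differed by 1.94 and 2 and Penk, the enkephalin precursor, by 1.58. Foxp1 (-0.07) was not called at the probe used, and its 4 probes ranged up to 1.7. By mouse the list median was 1.66, 1.33 and 1.28. Under median scaling 18 were called higher in the basal forebrain and 1 in the cortex.

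Transcription factors of the ventral forebrain were called higher in the basal forebrain for 16 of 21 genes, and none was called higher in the cortex (median 1.37). Lhx8, Isl1, Gbx1 and Zic4 belong to this list and to the cholinergic list. Nkx2-1, which specifies the medial ganglionic eminence, was at -0.62, -0.81 and -0.35 against -5.4, -4.92 and -3.77 (4.1 ± 0.23, limma adjusted p = 1e-05). Its probe at mm9 chr12:57633119-57633178 lies beside that of Sfta3-ps (chr12:57591619-57591678), which differed by 4.16 ± 0.18. Six3, a factor of the ventral and rostral forebrain, was at 1.53, 1.53 and 1.52 against -1.76, -0.96 and -1.54 (2.94 ± 0.15, limma adjusted p = 7.05e-06). The interneuron factors Dlx5 and Dlx6 differed by 1.64 and 1.51, while Dlx1 (0.12), Lhx6 (-0.06), Sp8 (-0.6), Zic2 (-0.34) and Zic5 (0.07) were not called. Under median scaling 14 of the 21 were called higher in the basal forebrain and 1 in the cortex, and without Con mouse 2 also 1 in the cortex.

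The other genes among the 15 largest differences toward the basal forebrain encode receptors, transporters and signalling proteins. Calcr, the calcitonin receptor, was at 0.79, 0.22 and 1.07 against -4.03, -4.18 and -4.55 (4.95 ± 0.3, limma adjusted p = 1.48e-05). Prok2, a secreted ligand, differed by 4.56 ± 0.2, and Slc10a4, a vesicular protein of cholinergic neurons, by 4.44 ± 0.15. Dgkk (4.21 ± 0.11), a diacylglycerol kinase, Irs4 (4.18 ± 0.3), an insulin receptor substrate, and Gabrq (4.13 ± 0.33), a GABA-A receptor subunit, all have probes on chromosome X. Gpr149, an orphan receptor, differed by 4.09 ± 0.15 at the probe used, but its other probe gave -0.31. Among genes not above background in any DKO cortex sample, Gbx2, a homeobox gene of the thalamus and ventral forebrain, was at least 25.7-fold higher (limma adjusted p = 1.75e-05). Cckar, a cholecystokinin receptor, was at least 21.5-fold higher (limma adjusted p = 1.75e-05), and the keratin gene Krt25 at least 9.23-fold (limma adjusted p = 4.7e-05).

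Cortical excitatory neuron genes were called higher in the cortex for 14 of 15, where 20.2% of all genes were, with a median difference of -2.42. Neurod6, a bHLH factor of glutamatergic neurons, was at -3.14, -2.99 and -4.06 against 1.94, 1.78 and 1.63 (-5.18 ± 0.26, SE, n = 3 mice, limma adjusted p = 7.04e-06). Fezf2, which specifies deep-layer projection neurons, was at -3.74, -3.39 and -4.05 against 0.9, 0.9 and 0.48 (-4.48 ± 0.14, limma adjusted p = 1.16e-06). For both genes the regions lay far apart in all 3 mice. Emx1 (-3.11) and Tbr1 (-2.18), dorsal transcription factors, Neurod2 (-3.1), whose window is shown above, and Slc17a7 (-2.91), which loads glutamate into vesicles, moved in the same direction. Mef2c, an activity-regulated factor, differed by -1.66 ± 0.1 and Itpka, an inositol phosphate kinase, by -1.29 ± 0.09. Camk4 (-0.26) was not called at the scaling used and was under median scaling, which gave 15 of 15.

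Layer markers split. Of 21 tested, 10 were called higher in the cortex and 3, Foxp2 (1.57), Otof (1.12) and Syt6 (0.66), in the basal forebrain, with a median of -0.39. With the median of all probes of a gene, 8 were called higher in the cortex and 7 in the basal forebrain, with a list median of -0.04. Lamp5, of superficial interneurons and layer 2/3 cells, was at 2.14, 2.12 and 1.96 against 3.74, 3.7 and 3.6 (-1.61 ± 0.08, limma adjusted p = 5.06e-06). Cplx3, a complexin of subplate cells, differed by -2.72 ± 0.24 and Cux2, of upper layers, by -0.81 ± 0.08, with another Cux2 probe at 0.85. Etv1, of layer 5, differed by -1.03 ± 0.08, but the median of its probes was 1.08.

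Choroid plexus genes were higher in the samples labelled cortex. Of 16 tested, 14 were called higher there and 2, Clic6 (0.97) and Prlr (0.67), in the basal forebrain, with a median difference of -2.44, or -2.35 with the 2 genes not above background set at their bound. The 3 probes of Prlr, which also belongs to the hypothalamic and preoptic list, ranged from -1.26 to 0.67. Ttr, transthyretin, which choroid plexus epithelium secretes, was at -2.92, -3.19 and -3.23 in the basal forebrain and at 6.55, 6.32 and 6.73 in the cortex (-9.65 ± 0.91, limma adjusted p = 0.000121). Folr1, a folate receptor, was at -4.15, -4.73 and -4.73 against 1.22, 0.95 and 1.65 (-5.81 ± 0.4, limma adjusted p = 2.52e-05). Slc4a5, a bicarbonate transporter, was at least 54.8-fold higher in the cortex (limma adjusted p = 3.38e-06), and Lmx1a, a transcription factor of the roof plate and choroid plexus, at least 6.99-fold (limma adjusted p = 9.27e-05). Kcne2, a potassium channel subunit, was at -6.9, -5.62 and -6.04 against 0.09, -0.34 and 0.54 (-6.29 ± 0.35, limma adjusted p = 1.09e-05), with 2 of 3 basal forebrain arrays above background. Aqp1, a water channel, differed by -3.85 and Otx2, the homeodomain factor of the plexus, by -0.98.

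The choroid plexus levels were high in all 3 cortex samples of both genotypes. The summed signal of the list was 4.89 to 4.98 on the log2 scale in DKO basal forebrain and 7.26 to 7.61 in DKO cortex, against 4.9 to 5.15 and 6.67 to 7.43 in Con mice. Ttr ranked first among the genes higher in DKO cortex. The part of plexus RNA in the other genes higher in the cortex was not tested. In DKO mouse 2 alone 8 of the 16 were called higher in the cortex. Under median scaling, without any 1 DKO mouse or without Con mouse 3, 1 rather than 2 was called higher in the basal forebrain.

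**Figure D2:**
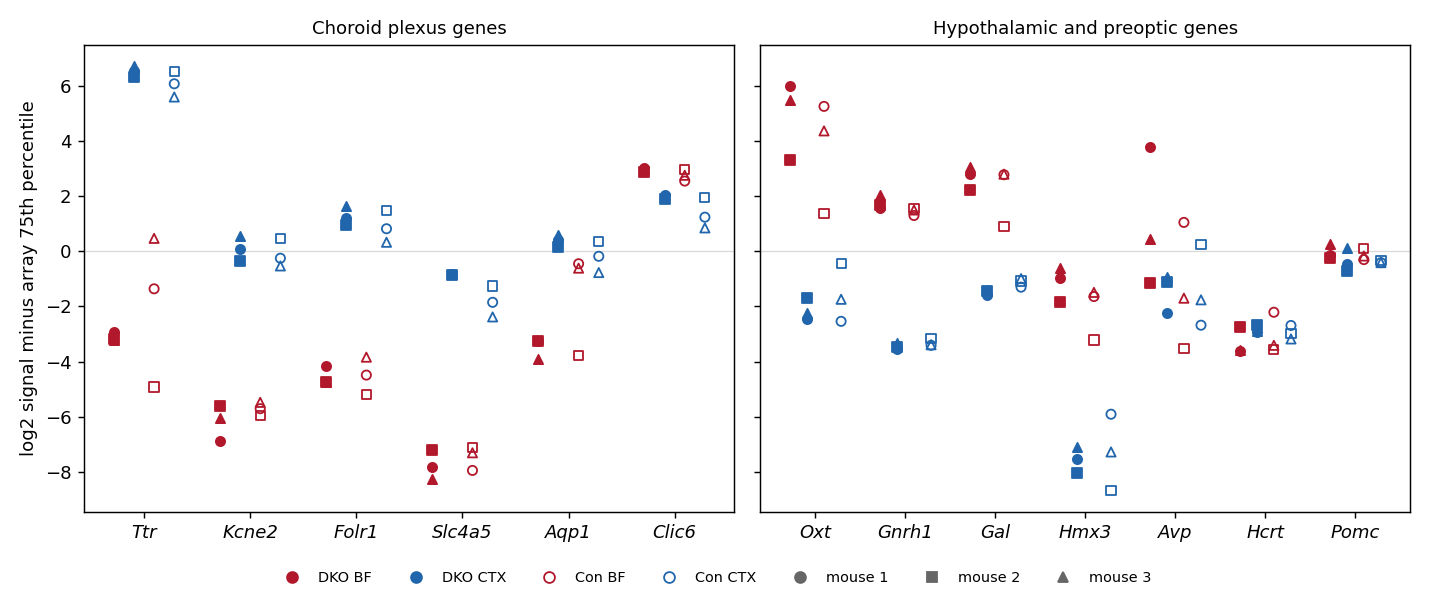
Levels (log2 signal minus the array's 75th percentile) of choroid plexus genes and of hypothalamic and preoptic genes in all 12 arrays, with basal forebrain in red, cortex in blue, DKO filled, Con open and the symbol giving the mouse. Ttr lies between 6.32 and 6.73 in the 3 DKO cortex samples, and Avp ranges from -1.14 to 3.77 in DKO basal forebrain.

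Immediate early genes, whose transcription follows neuronal activity within minutes, were called higher in the cortex for 15 of 18, with a median of -0.95. Arc, a synaptic plasticity gene, was at 3.22, 3.08 and 3.95 in the basal forebrain and at 4.88, 4.8 and 5.73 in the cortex (-1.72 ± 0.08, limma adjusted p = 4.78e-06). Its levels were highest in mouse 3 in both regions. Dusp1, a phosphatase of MAP kinases, was at 2.16, 1.94 and 2.5 against 3.19, 3.26 and 4.09 (-1.32 ± 0.1, limma adjusted p = 4.9e-05), and Fos differed by -0.71. Egr3 (-1.41 ± 0.09) and Junb (-1.08 ± 0.08), both transcription factors, moved the same way. Klf4 (0.3) was the 1 member called higher in the basal forebrain, a call lost without DKO mouse 1 or 2, without any 1 Con mouse and under median scaling, which gave 17 of 18 higher in the cortex. In DKO mouse 2 alone, 8 were called higher in the cortex.

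Synapse genes were called higher in the cortex for 14 of 22, where 20.2% of all genes were, and in the basal forebrain for none (median -0.38). In the 2 pairs within slide 1, 8 were called higher in the cortex. There, and without mouse 3, 1 was called higher in the basal forebrain. With the median of all probes of a gene, 10 were called higher in the cortex and 3 in the basal forebrain. Stx1a, a syntaxin of the release machinery, was at 1.71, 1.34 and 1.15 against 3.6, 3.39 and 3.42 (-2.07 ± 0.15, limma adjusted p = 3.03e-05). The active-zone scaffold Bsn differed by -1.01 ± 0.08 and Syn1, a vesicle phosphoprotein, by -0.94 ± 0.09, while the scaffold Dlg4 (0.05) was not called.

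The remaining large differences toward the cortex were a mixed group. How much of them comes from plexus RNA in the cortex samples was not tested. Glp2r, a glucagon-like peptide receptor, was at -4.57, -5.9 and -6.08 against 0.33, 0.98 and -0.37 (-5.83 ± 0.39, limma adjusted p = 2.39e-05), but its other probe gave -0.32. Adra1d, an alpha-1 adrenergic receptor, was at -3.87, -4.22 and -4.37 against 0.37, 0.51 and 0.27 (-4.53 ± 0.17, limma adjusted p = 2.58e-06). Psrc1 (-5.29 ± 0.16), a microtubule-associated protein, Hkdc1 (-5.12 ± 0.28), a hexokinase, Myh3 (-5.04 ± 0.24) and Myl4 (-4.1 ± 0.22), myosin chains, and Ntn5 (-4.61 ± 0.21), of the netrin family, were also among the 15 largest. The others were Akr1c18 (-4.93 ± 0.49), a steroid dehydrogenase, Wfdc2 (-4.28 ± 0.42), a secreted protease-inhibitor family member, and Ecrg4 (-4.15 ± 0.46), a secreted peptide precursor. Prss16, a serine protease, was not above background in DKO basal forebrain and at least 19.3-fold higher in the cortex, as were Itprid1 (at least 17-fold), Prr32 (at least 16.6-fold) and the sulfotransferase Sult1c2 (at least 13.4-fold).

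Receptor families had calls in both directions. Over all genes tested, 19.9% were called higher in the basal forebrain and 20.2% in the cortex. Of 32 neuropeptide receptors, 16 were called higher in the basal forebrain and 7 in the cortex (median 0.6). Avpr1a, a vasopressin receptor, was at -0.26, -0.51 and -0.16 against -3.02, -3.23 and -3.08 (2.8 ± 0.11, limma adjusted p = 2.87e-06). The tachykinin receptors Tacr1 (2.49 ± 0.12) and Tacr3 (2.9 ± 0.15) and the kappa opioid receptor Oprk1 (1.66 ± 0.09) were also higher there. Cckbr (-2.25), the brain cholecystokinin receptor, was higher in the cortex, whereas Cckar was higher in the basal forebrain. Of 25 monoamine receptors, 11 were called higher in the basal forebrain and 8 in the cortex. Htr4 (2.92 ± 0.15) and Htr2c (1.32 ± 0.09), serotonin receptors, were among the former. Under median scaling the counts were 9 and 13.

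Acetylcholine receptors were called higher in the cortex for 5 of 13 and in the basal forebrain for 2, where 20.2% and 19.9% of all genes were. Chrm1, the main muscarinic receptor of cortical neurons, was at 1.64, 1.4 and 1.23 against 2.75, 2.63 and 2.56 (-1.22 ± 0.08, limma adjusted p = 1.75e-05), although the median of its probes was -0.04 and not called. Chrm3 differed by -1.95 ± 0.14. Chrnb3, a nicotinic subunit, was not above background in DKO basal forebrain and at least 3.57-fold higher in the cortex (limma adjusted p = 7.16e-05). Chrna2 was higher in the basal forebrain by 1.67 ± 0.14.

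Neurotrophic factors and their receptors changed in both directions. Of 13, 6 were called higher in each region, against 19.9% of all genes in the basal forebrain and 20.2% in the cortex. Bdnf (-2.02) and Ntf3 (-1.61), ligands, were higher in the cortex, as was Ntf5 (at least 4.02-fold, limma adjusted p = 0.000405), while the receptor Ngfr, given above, was higher in the basal forebrain. Gdnf, a ligand of another family, was higher in the basal forebrain by 2.84 ± 0.17, and so were its receptor subunits Ret (2.11 ± 0.13) and Gfra1 (1.36), whereas Gfra2, the receptor of neurturin, was lower there by -1.93 ± 0.1. Ntrk3 (0.08) was not called.

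GABAergic neuron genes changed in both directions. Of 16, 8 were called higher in the cortex and 6 in the basal forebrain, where 20.2% and 19.9% of all genes were. Gad2, which makes GABA, was at 5.09, 5.13 and 5.19 against 3.45, 3.65 and 3.56 (1.58 ± 0.07, limma adjusted p = 3.54e-06), and Slc32a1, which loads it into vesicles, differed by 1.22 ± 0.09. Pvalb, a calcium-binding protein of fast-spiking interneurons, was at 3.27, 3.15 and 3.32 against 4.56, 4.41 and 4.84 (-1.36 ± 0.08, limma adjusted p = 1.2e-05), and Vip, a peptide gene, differed by -2.76 ± 0.22. Cck (-3.39), Cort (-2.82) and Npy (-1.08) moved the same way, and Sst by -0.35. Nos1 (0.65) and Calb2 (1.92), also interneuron markers, were higher in the basal forebrain. Under median scaling 3 were called higher in the basal forebrain and 9 in the cortex, and in mouse 2 alone 3 and 7.

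**Figure D3:**
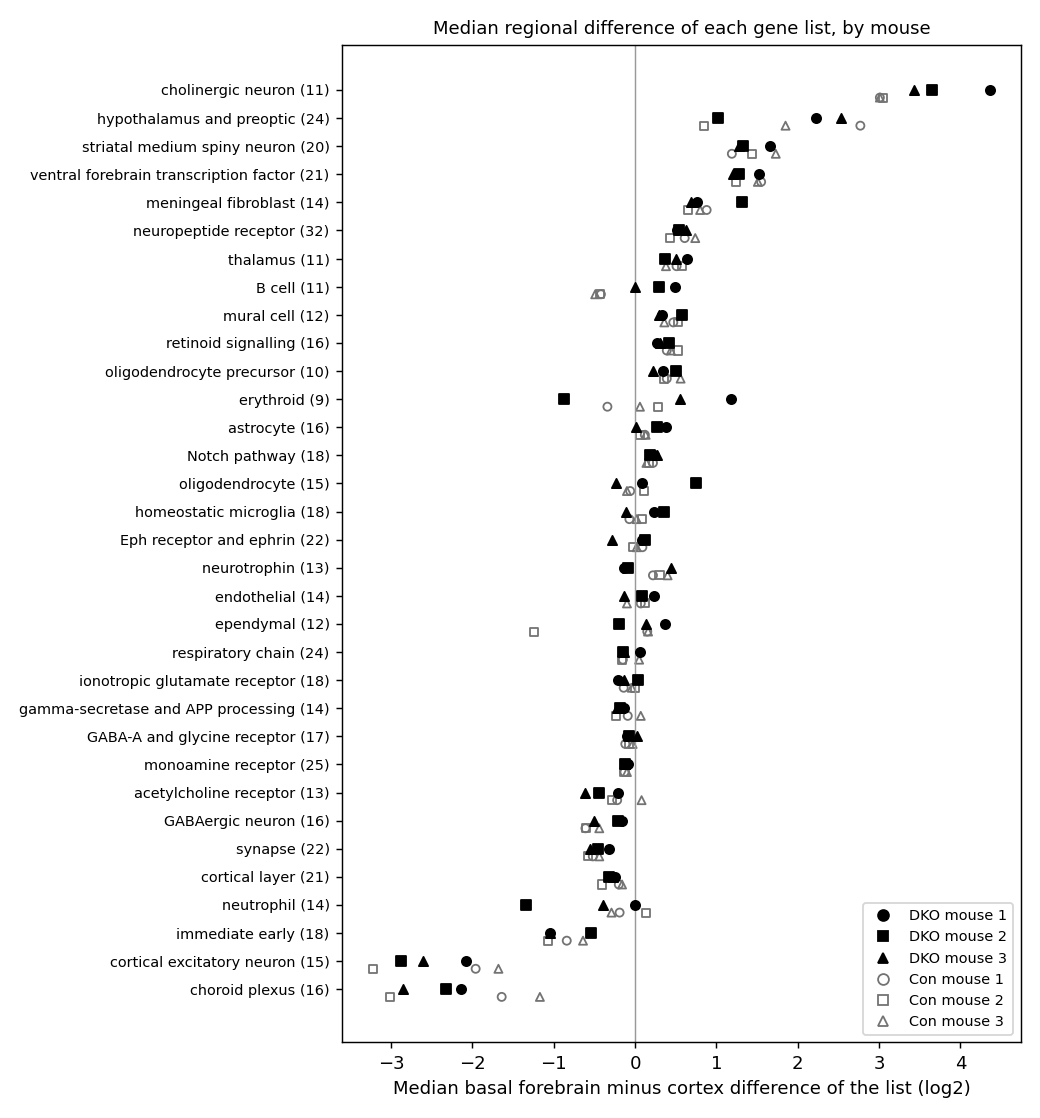
Median basal forebrain minus cortex difference (log2) of each gene list with 5 or more genes tested, for DKO mice (filled) and Con mice (open), with the symbol giving the mouse and the number of genes tested in parentheses. The cholinergic list lies at 3.43 to 4.36 and the choroid plexus list at -2.85 to -2.14 in DKO mice, while the erythroid list runs from -0.87 to 1.18.

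Receptor subunits of fast transmission mostly differed by less. Of 18 ionotropic glutamate receptor genes, 7 were called higher in the cortex and 6 in the basal forebrain (median -0.11), where 20.2% and 19.9% of all genes were. With the median of all probes of a gene these counts were 6 and 9. Gria3, an AMPA subunit, differed by -1.07 ± 0.08 and Grin3a, an NMDA subunit, by 0.7 ± 0.07. Of 17 GABA-A and glycine receptor genes, 7 were called higher in the cortex and 6 in the basal forebrain, with Glra1, a glycine receptor subunit, at 2.35 ± 0.19 and Gabra5 at -0.99 ± 0.12. Under median scaling, 11 glutamate receptor genes were called higher in the cortex and 1 in the basal forebrain. Within slide 1, without mouse 2 and in mouse 2 alone these counts were 4 and 3, and without mouse 1, 4 were called higher in the cortex. Of the GABA-A and glycine receptor genes, 4 were called higher in the cortex within slide 1, without mouse 2 and in mouse 2 alone.

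Retinoid genes were called higher in the basal forebrain for 8 of 16 and in the cortex for 3 (median 0.33). Rarb, a retinoic acid receptor, was at 2.97, 3.26 and 3.27 against 0.91, 1.22 and 1.63 (1.91 ± 0.12, limma adjusted p = 1.75e-05). Crabp1, a retinoic acid binding protein, differed by 1.98 ± 0.14 and Rxrg by 1.76 ± 0.13, whereas Rara differed by -0.87 ± 0.09. Under median scaling 5 retinoid genes were called higher in the cortex, and in mouse 2 alone 1. Ephrin genes and their receptors were called higher in the basal forebrain for 6 of 22 and in the cortex for 7, against 19.9% and 20.2% of all genes. Ephb6 differed by -1.88 ± 0.1 and Epha8 by 1.43 ± 0.11. Under median scaling the ephrin counts were 3 and 8. Thalamic genes were called higher in the basal forebrain for 8 of 11 (median 0.51), for 4 under median scaling and in mouse 2 alone, and for 5 within slide 1, without mouse 1 or without mouse 3. Tnnt1 (1.8 ± 0.09) and Tcf7l2 (1.83 ± 0.11), a Wnt effector, were among them, and Ramp3 (-1.49 ± 0.09) was higher in the cortex.

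Gamma-secretase and APP processing genes were called for 6 of 14, near the 40.1% of all genes called. Of these, 5 were higher in the cortex, where 20.2% of all genes were, and 1, the sheddase gene Adam17 (0.32), in the basal forebrain. No member reached 2-fold. Adam10, the main alpha-secretase, was at 2.19, 2.06 and 2.09 against 2.58, 2.51 and 2.9 (-0.55 ± 0.09, limma adjusted p = 0.00238), App differed by -0.48 ± 0.12 and Ncstn, the nicastrin subunit, by -0.43 ± 0.11. For each of these 3 the cortex level was highest in mouse 3, whose cortex array was on slide 2, and in the 2 pairs within slide 1 only 1 member of the list was called, higher in the cortex. Without mouse 2, 2 were called, without mouse 3, 1 and without Con mouse 1, 3, all higher in the cortex. The other App probe differed by 0.5. Under median scaling 9 members were called, all higher in the cortex. Notch pathway genes were called higher in the basal forebrain for 7 of 18, against 19.9% of all genes. Heyl, a Notch target, differed by 1.16 ± 0.14 and Hes5 by 0.42 ± 0.07. Hes1, also a Notch target, was at -3.39, -3.85 and -4.23 against -2.74, -2.86 and -2.14 and was called higher in the cortex (-1.24 ± 0.26, limma adjusted p = 0.00595). Under median scaling 3 were called higher in each region, without mouse 1, 4 in the basal forebrain and in mouse 2 alone 3.

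Most called glial and vascular genes were higher in the basal forebrain, where 19.9% of all genes tested were. Of 15 oligodendrocyte genes, 2 were called, Myrf (1.05 ± 0.13), the myelin regulator, and Ermn (0.99 ± 0.25), both higher in the basal forebrain. The list median was 0.08, 0.75 and -0.24 in mice 1 to 3, and in mouse 2 alone 11 were called higher in the basal forebrain. Within slide 1 and without mouse 3, 6 were called, and without mouse 2, 1. Oligodendrocyte precursor genes were called for 6 of 10, with Lhfpl3 at 1.3 ± 0.09, and for 2 under median scaling. Of 16 astrocyte genes, 6 were called higher in the basal forebrain and 1, Slc1a2 (-0.23), in the cortex. Agt, angiotensinogen, was at 4.17, 3.27 and 3.61 against 1.26, 1.65 and 1.24 (2.3 ± 0.21, limma adjusted p = 0.000111), and the GABA transporter Slc6a11 differed by 1.55 ± 0.1 and Itih3 by 2.18 ± 0.2. Under median scaling 3 were called higher in the basal forebrain and 2 in the cortex. Within slide 1, without DKO mouse 2 or 3, without any 1 Con mouse and in mouse 2 alone none was called higher in the cortex. The pan-astrocyte genes Aldh1l1 (-0.01) and Slc1a3 (0.04) were not called, though another Slc1a3 probe differed by 1.16.

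Microglial genes were called higher in the basal forebrain for 5 of 18, against 19.9% of all genes tested, with Cx3cr1, the fractalkine receptor, at 0.42 ± 0.11. None was called without mouse 1, 1 without mouse 2, 3 without any 1 Con mouse, and under median scaling 1 was called, higher in the cortex. Endothelial genes were called for 2 of 14, Kdr (0.38 ± 0.1) and Pltp (0.43 ± 0.12), and under median scaling for 2 that were higher in the cortex. Within slide 1 and without mouse 3, 4 were called higher in the basal forebrain, without mouse 2, 1, and without mouse 1 and in mouse 2 alone 1 was called higher in the cortex. Mural cell genes were called higher in the basal forebrain for 7 of 12, with the smooth muscle genes Tagln at 1.67 ± 0.18 and Myh11 at 1.83 ± 0.21, for 3 under median scaling and for 4 without mouse 2. Meningeal fibroblast genes were called higher in the basal forebrain for 11 of 14, with Aldh1a2, a retinaldehyde dehydrogenase, at 1.3 ± 0.14 and Slc6a13 at 1.21 ± 0.12. Ccn3 (-2.09 ± 0.2), a matricellular protein that cortical neurons also make, was higher in the cortex. Ependymal genes were called for 4 of 12, 3 of them higher in the basal forebrain, with the chemerin gene Rarres2 at 0.83 ± 0.13 and Foxj1, the ciliary master factor, at 0.49 ± 0.14. None was called in mouse 2 alone, none higher in the cortex without mouse 2 or 3, and 5 higher in the basal forebrain without Con mouse 2.

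Blood-cell genes varied between mice. The globin and red-cell list had medians of 1.18, -0.87 and 0.55 in DKO mice 1 to 3, and 1 of 9 genes was called, higher in the cortex. Hbb-b1, an adult beta-globin, was at 3.96, 2 and 2.65 in the basal forebrain and at 2.64, 3 and 1.18 in the cortex, so its groups overlapped (0.6 ± 0.4, limma adjusted p = 0.265). Without mouse 2, 6 of the 9 red-cell genes were called higher in the basal forebrain, and in mouse 2 alone 7 were called higher in the cortex. The globin genes are near-identical copies whose probes may not tell them apart. Of 11 B cell genes, Cd22 (0.76 ± 0.21) and Cd79b (0.45 ± 0.15) were called higher in the basal forebrain, none without mouse 2 or in mouse 2 alone, and 1 without DKO mouse 1, without any 1 Con mouse or under median scaling. Of 14 neutrophil genes, Il1b (-2.08 ± 0.43), a cytokine that microglia also make, was called, higher in the cortex. S100a8 was at 0.93, -0.27 and -0.38 against 0.96, 1.85 and 0.14 (-0.89 ± 0.37, limma adjusted p = 0.0873). Under median scaling 10 neutrophil genes were called higher in the cortex, 7 in mouse 2 alone and 3 without mouse 1.

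Genes of the respiratory chain, used by every cell, were called for 1 of 24, Ndufa4 (-0.52 ± 0.11), with a median of -0.09. Under median scaling 8 were called higher in the cortex, and none within slide 1 or in mouse 2 alone. The median over this list was 0.06, -0.15 and -0.14 in mice 1 to 3.

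The same regional difference was measured in Con mice, where 13155 of 26592 genes tested (49.5%) were called, 5203 (19.6%) higher in the basal forebrain and 7952 (29.9%) in the cortex. With slide as a term 627 were called, without Con mouse 1, 6886 and without Con mouse 2, 8070, and region and slide cannot be told apart within Con mice. Of the 3767 genes that differed by 2-fold in DKO mice, 3574 were tested in Con mice. Of these, 3547 had the same sign there, 2928 (81.9%) were called in the same direction and 0 in the opposite one, by the fit without a slide term. All 30 of the largest named differences were called in the same direction in Con mice. Lhx8 differed by 4.62 ± 0.25 in Con mice, Oxt by 5.23 ± 1.01, Ttr by -8.01 ± 0.9 and Neurod6 by -3.82 ± 0.26. Across 25549 genes the DKO and Con differences had a Pearson correlation of 0.88, where genes are not independent replicates and the Con pairs all lie across the 2 slides. Between the pairs of DKO mice it was 0.82 for mice 1 and 2, 0.74 for mice 1 and 3 and 0.81 for mice 2 and 3.

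**Figure D4:**
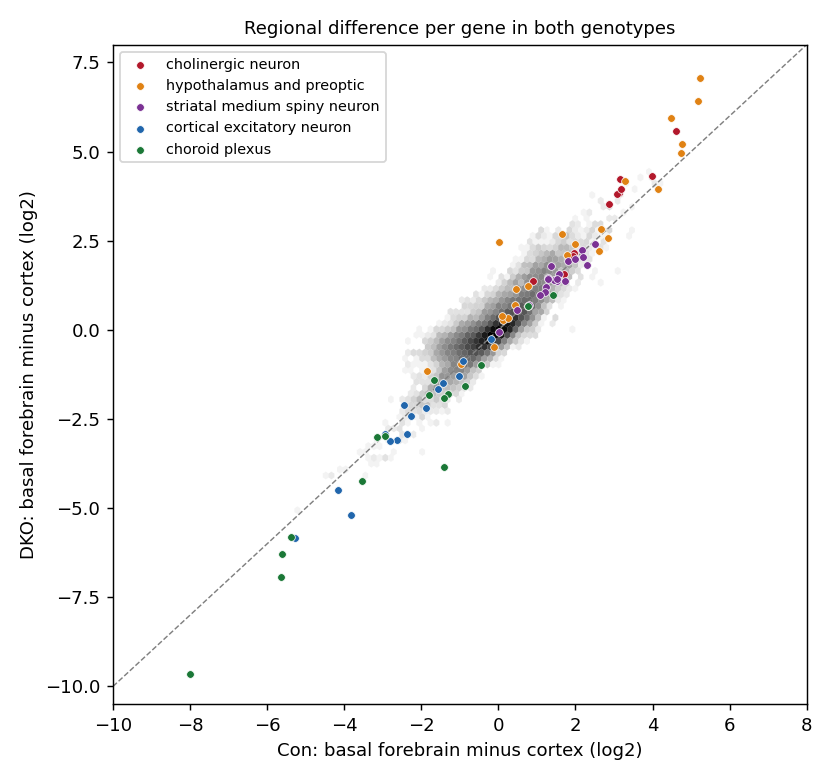
Basal forebrain minus cortex difference (log2) of each gene in Con mice, on the x axis, and in DKO mice, on the y axis, with density in grey, members of 5 gene lists in colour and a dashed line where both are equal. Ttr lies at -8.01 and -9.65, and the cholinergic genes other than Ache lie above the line, none of them called different between the genotypes. The Con pairs all cross slides and most DKO pairs do not, so slide and genotype are partly mixed here.

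No gene's regional difference was called different between DKO and Con mice. Of 26959 genes tested with limma's interaction contrast, 0 (0%) had an adjusted p under 0.05, and 2643 (9.8%) had an unadjusted p under 0.05. Xist was well above background in the DKO mice named above and in no Con mouse, so apparent sex and genotype are not fully separate in this contrast. Slide is partly mixed with genotype in it too, because all Con pairs cross slides while the pairs of DKO mice 1 and 2 lie within slide 1. Among the genes with the smallest p was Ngfr, whose difference was 4.23 in DKO and 3.15 in Con mice (1.07 ± 0.14, limma adjusted p = 0.504). Ngfr was at 1.6, 1.51 and 1.91 in DKO basal forebrain, with a mean of 1.45 in Con basal forebrain, and its mean in the cortex was -2.56 in DKO and -1.71 in Con mice. In the cortex it was at -2.82 and -2.69 in DKO mice 1 and 2, on slide 1. On slide 2 it was at -2.15 in DKO mouse 3 and at -1.81 to -1.61 in Con mice. The part of slide in this was not tested. Ly6d, a surface protein, differed by 2.34 ± 0.29 between the genotypes, Wnt10a, a Wnt ligand, by -1 ± 0.15 and Rasl10a, a Ras-like protein, by -0.72 ± 0.12, each with a limma adjusted p of 0.504. Without DKO mouse 3, 883 genes were called, and then both remaining DKO pairs lie within slide 1 while the Con pairs cross slides, so genotype and slide cannot be told apart in that fit. Without Con mouse 2, 5 were called.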

How the data were processed

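RNA from 12 tissue samples was hybridised to 1-colour Agilent arrays, and the authors deposited, per the file headers, the scanner's processed signal intensity (Feature Extraction 10.7.1.1, background-subtracted), probe positions on mm9 and a normalized table of log2 values. Here 56568 probes were kept after leaving out controls and 37 probes with all spots flagged. Signals were log2-transformed, scaled by each array's 75th percentile and reduced to the brightest probe per gene, with 32972 probes named through RefSeq. A gene was tested if either region had its probe well above background in all 3 mice. limma 3.58.1 (R 4.3.3) fitted all 12 arrays with mouse as a block and an intensity trend, and p-values were adjusted by Benjamini-Hochberg over all genes of a comparison. Same-numbered samples come from the same animal, per the titles; their deviations from the group means correlated at -0.01, 0.13 and -0.03 in DKO and at 0.1, 0.15 and 0.19 in Con mice. A gene whose probe missed that mark in every mouse of a region has a bound, computed from the lowest signal well above background on each array. The adjusted p beside a bound belongs to the difference of the signals as scanned and is not a test of the bound. The named genes are the 15 largest differences in each direction, the 5 largest bounds in each direction, up to 4 members of each list by smallest p, 5 genes for the genotype contrast, and Psen2 and Chat; other members are named with values only. The members and lists were chosen with earlier results of these data known. Some genes that count in the totals are not reported here by name. The normalized log2 values that the authors deposited served as an alternative, and 12 per-sample columns of detection flags beside them were not used.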

Additional observations from a re-analysis of the deposited data

Results flagged for a closer look

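Cyp4b1-ps2, a pseudogene, had differences of opposite sign in the 2 genotypes, and was not called different: its difference was 2.03, 0.1 and 0.9 in the 3 DKO mice and -2.11, -2.43 and -2.42 in the 3 Con mice. The genotype contrast was 3.33 ± 0.57 (limma adjusted p = 0.504), and the probe was well above background on 6 of the 12 arrays. Its mean level in Con basal forebrain was -8.67, so these sizes rest in part on signals at background and are not measured folds.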

How the results depend on the processing

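Leaving out each mouse in turn gave 6625 to 9945 calls in DKO mice (fewest without DKO mouse 2), 3068 to 4116 at 2-fold, 6886 to 14727 in Con mice (fewest without Con mouse 1, and 8070 without Con mouse 2) and 0 to 883 for the genotype contrast. Without the replicate block that pairs regions by mouse the counts were 10337, 3700, 13025 and 0. Normexp background correction gave 1843 genes at 2-fold in DKO mice. With slide as a further term Con mice gave 627 calls, because only DKO mouse 3 then separates slide from region there. Without DKO replicates 1 and 3, an alternative chosen after seeing the data, DKO mice gave 5178 calls and the genotype contrast 28. Within slide 1 no Con value could be had. Among named genes called in the main fit or under the alternative, signs turned for C1qb under median scaling (-0.07). They also turned for App (0.01), Etv1 (1.08), Grin1 (1.23), Pclo (0.23) and Siglech (-1.36) with the median of all probes of a gene. Without DKO replicates 1 and 3 they turned for Alas2 (-0.87), Hbb-b1 (-1) and Hbb-b2 (-0.82). Psen2 (to -0.42), Flt1 (to -0.03) and Ndufs3 (to 0.06) changed sign under an alternative but were called in neither fit. The cause was not tested. Of 161 named differences, 133 to 161 kept their direction and side of the threshold under each alternative that tested all of them. Dim probes limit the precision of the largest differences.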

Other observations

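Hippocampal genes, a list written after values were seen and given no test as a list, did not move one way: of 11 measured, 4 were called higher in the cortex samples and 3 in the basal forebrain. In DKO mouse 2 alone 1 was called higher in the cortex. Wfs1, a marker of CA1 and of subcortical neurons, was at 5.17, 5.06 and 4.91 in DKO basal forebrain and at 3.5, 3.83 and 3.09 in DKO cortex (1.57 ± 0.13, limma adjusted p = 7.05e-05). Bok, of CA3 neurons, was at 1.29, 1.09 and 1 against 2.28, 2.59 and 1.99 (-1.16 ± 0.11, limma adjusted p = 0.000112). Prox1, of dentate granule cells, differed by -0.31 and was not called.

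The probe of Kdm5d, a Y-linked gene, was well above background in all 6 DKO arrays, at -0.68, -1.04 and -1.2 in the basal forebrain and at -0.27, -0.23 and 0.04 in the cortex, including the mice in which Ddx3y was not.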
